A study of Homo sapiens with 20 samples.

Results

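The sites described here are the 4111 genomic intervals at which SMC1A, a core subunit of the cohesin ring, was called as bound only after STAG2 was knocked down in M14 cells. They were chosen by merging the 4 SMC1A peak lists into 181087 union sites on chromosomes 1 to 22 and X and keeping those that overlapped a peak in both STAG2-KD lists and in neither WT list. The gained sites were 2.27% of the union. The opposite pattern held for 2053 lost sites (1.13%), which both WT lists contained and the STAG2-KD lists did not, and 55715 retained sites had a peak in all 4 lists. With the same rule within a single replicate, 17438 sites were gained in replicate 1 (9.63%) and 44445 in replicate 2 (24.5%). Because these lists chose the sites, the SMC1A values below describe the choice and were not tested.

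M14 is a human melanoma cell line, and all samples came from M14 cells that carried a doxycycline-inducible short hairpin RNA against STAG2. Cells grown without doxycycline served as WT, and cells given doxycycline served as STAG2-KD, for 5 days as given in the study's methods and in the descriptions of replicate 1. Both groups therefore shared the line, the integrated hairpin and its selection, and doxycycline itself was present only in STAG2-KD. Chromatin immunoprecipitation with sequencing (ChIP-seq) was done for STAG1, STAG2, SMC1A and CTCF in 2 replicates of each group, which gave 16 peak lists. Nothing in the sample descriptions states that the replicates were separate cultures, so a p-value over them measures only the spread between these libraries. Many STAG2 peaks remained after knockdown: the STAG2 list of replicate 1 had 81909 peaks in WT and 60867 after knockdown, and that of replicate 2 had 119231 and then 106445.

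Cohesin is a ring of SMC1A, SMC3 and RAD21 that also holds either STAG1 or STAG2. The ring extrudes chromatin loops and halts at CTCF, so most cohesin sites in mammalian cells coincide with CTCF. STAG1-cohesin is known mainly from such CTCF anchors, whereas STAG2-cohesin is also found at enhancers and promoters that lack CTCF. AP-1, a dimer of FOS and JUN family proteins, binds many enhancers and responds to growth factor and ERK signalling, the pathway that drives most melanomas.

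The DNA under the gained sites was examined with 8 short motifs, each searched on both strands in the 200 bp around the summit of the site's strongest SMC1A peak. The AP-1 letters TGANTCA, which read the same on both strands, differed most between the gained sites and the union. The following 120 bp windows, read from the GRCh37 (hg19) plus strand and centred between the 2 STAG2-KD summits, come from gained sites described below and carry those letters, shown in capitals. The first 3 are among the sites with the strongest SMC1A or STAG1 signal, and the fourth lies in the STAG2 gene itself.

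MACROH2A1 side, chr5:134544642-134544761 (+): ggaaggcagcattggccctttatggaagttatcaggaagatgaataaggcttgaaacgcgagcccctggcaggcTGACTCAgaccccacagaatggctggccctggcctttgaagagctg
SLC2A1 side, chr1:43432951-43433070 (+): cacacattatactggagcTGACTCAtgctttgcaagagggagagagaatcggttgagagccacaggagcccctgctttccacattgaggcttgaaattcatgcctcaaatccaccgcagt
AHI1 side, chr6:135858969-135859088 (+): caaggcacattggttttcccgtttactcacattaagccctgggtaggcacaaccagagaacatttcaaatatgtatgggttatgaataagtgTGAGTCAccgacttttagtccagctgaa
STAG2 intron, chrX:123198006-123198125 (+): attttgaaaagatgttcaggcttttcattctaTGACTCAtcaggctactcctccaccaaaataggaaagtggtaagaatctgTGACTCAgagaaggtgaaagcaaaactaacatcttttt

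Other gained sites carried the core letters of the CTCF motif, again in capitals. The first is the second strongest gained site, the second gained both SMC1A and STAG1, and the third lies 7.38 kb upstream of EGR1.

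SH3RF3 intron, chr2:109877413-109877532 (+): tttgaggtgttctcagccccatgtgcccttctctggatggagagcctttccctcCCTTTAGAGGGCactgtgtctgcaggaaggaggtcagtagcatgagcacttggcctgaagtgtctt
MAX side, chr14:65637767-65637886 (+): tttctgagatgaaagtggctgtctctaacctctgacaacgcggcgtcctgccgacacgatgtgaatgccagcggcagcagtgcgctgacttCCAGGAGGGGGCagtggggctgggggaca
EGR1 side, chr5:137793675-137793794 (+): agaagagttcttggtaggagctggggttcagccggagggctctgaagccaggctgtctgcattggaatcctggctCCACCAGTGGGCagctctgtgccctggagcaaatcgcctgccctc

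The site ranked strongest for STAG1 among those that gained STAG1 in both replicates carried neither set of letters in its window.

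TAFA5 intron, chr22:48973277-48973396 (+): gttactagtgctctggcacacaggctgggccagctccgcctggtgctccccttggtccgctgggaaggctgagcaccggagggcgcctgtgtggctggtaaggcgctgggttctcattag

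The AP-1 letters were present in 1094 gained windows, a share of 26.6% (95% Wilson interval 25.3 to 28.0, for counting error only). They were present in 5.36% of lost windows, 8.15% of retained windows and 11.03% of all union windows. In 200 bp windows placed 5 kb away from the gained sites the share was 6.06%, close to the 6.04% found 5 kb away from all union sites. The share was thus highest at the gained sites, and the lost sites lay below the union. With the rule applied within a single replicate the share was 19.5% in replicate 1 and 16.3% in replicate 2. Of the 1274 matches in gained windows, 77.5% had C or G as the middle base, the form that AP-1 dimers prefer, against 68.7% of the matches in all union windows, 66% in retained windows and 57.8% of the 116 matches in lost windows.

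The letters were concentrated at the SMC1A summit. In bins of 50 bp, 8.93% of the gained sites had a match in the bin just downstream of the summit and 7.95% in the bin just upstream, and the share fell to 1.46% at the far upstream end of the profile. The lost sites had 2.19% and 0.828% in the same central bins. The CTCF core was more common at the retained sites than at either gained or lost sites.

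**Figure D1:**
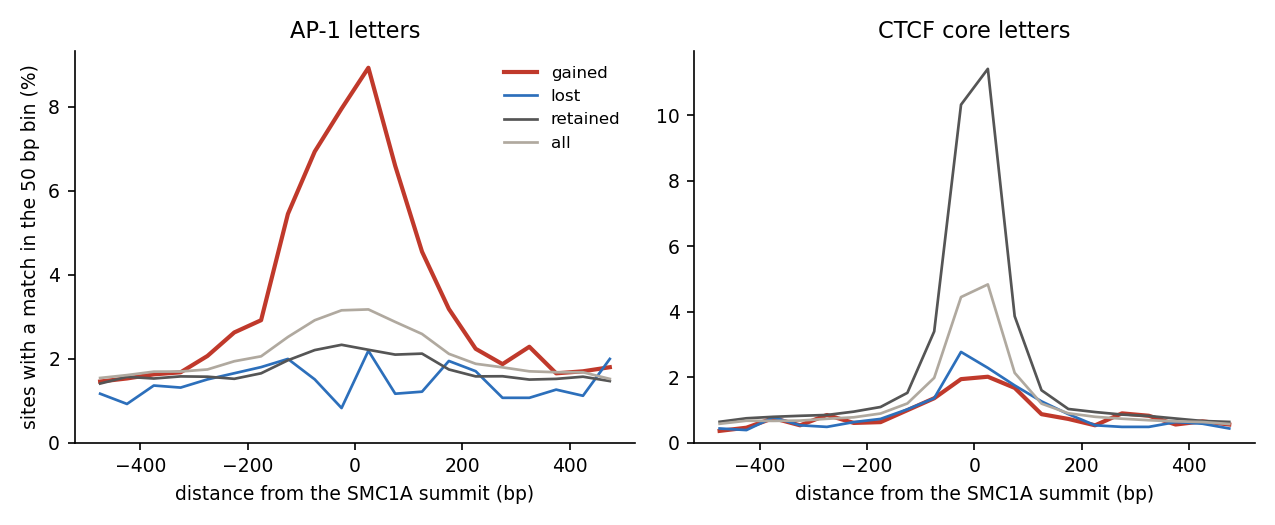
Share of sites with AP-1 letters (left) and CTCF core letters (right) in 50 bp bins, from 500 bp upstream to 500 bp downstream of the SMC1A summit, for gained, lost, retained and all union sites. The AP-1 share of the gained sites rose to 8.93% at the summit, whereas the lost sites did not exceed 2.19% in any bin.

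The AP-1 share followed the side on which a site was seen, also in sites that the rule left out. Sites found only in STAG2-KD replicate 1 had the letters in 13.4% of 975 windows, and sites found only in WT replicate 1 in 6.56% of 655. In replicate 2 the corresponding shares were 15.3% of 40097 and 6.78% of 35954. These groups of sites do not overlap each other or the gained sites, and in both replicates the STAG2-KD side was higher. Sites with a peak in both STAG2-KD lists and only the WT list of replicate 2 had 17.7%, and those with a peak in both WT lists and only the STAG2-KD list of replicate 2 had 9.24%. Away from the gained sites, the 2650 union sites that gained STAG1 in both replicates had 16.4% and the 583 that lost STAG1 had 9.61%.

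**Figure D2:**
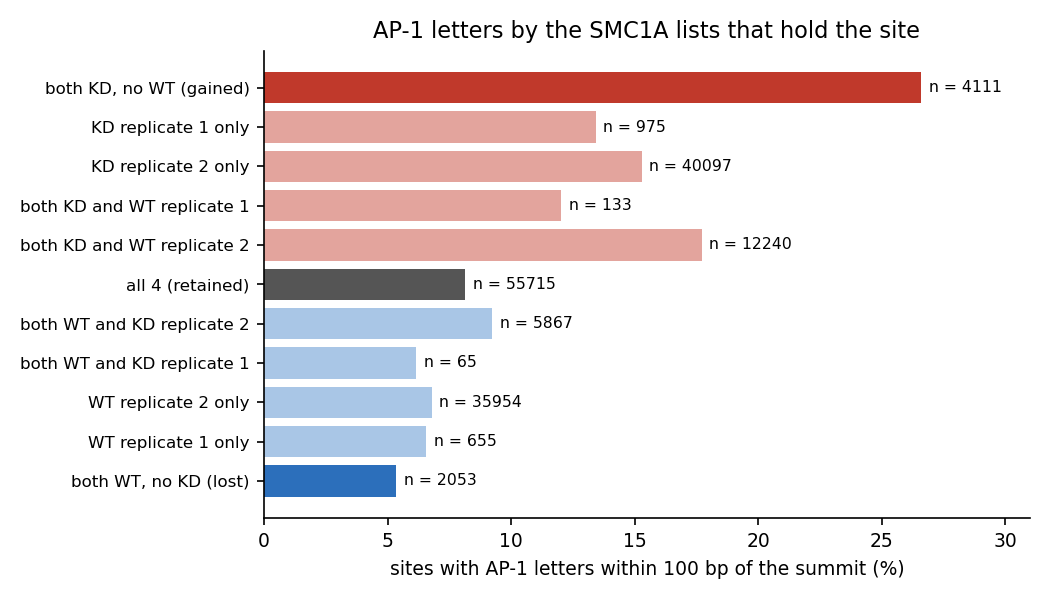
Share of union SMC1A sites with AP-1 letters within 100 bp of the summit, by the SMC1A lists that held the site, with the number of sites beside each bar. Sites of the STAG2-KD side (red shades) ran from 12.03% to 26.6%, and sites of the WT side (blue shades) from 5.36% to 9.24%.

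Within the gained sites the letters went with the absence of CTCF. They were found in 33.8% of the 2611 gained sites with no CTCF peak in any list, against 14.9% of all 88748 union sites without CTCF. Where STAG1 or STAG2 but no CTCF was present the share was 39.2% of 1369, and where CTCF was present in all 4 lists it was 9.89% of 637. Gained sites in introns (29.4%) and between genes (29.0%) held the letters more often than those at promoters (16.8%), but the promoter value was still above the 6.86% of all union promoter sites. The share also rose with SMC1A strength, from 21.7% of the 1028 weakest gained sites to 31.7% of the 1027 strongest.

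The other motifs differed less. TEAD letters (GGAATG), which often occur beside AP-1 in enhancers, were in 15.2% of gained, 13.6% of lost and 12.3% of all union windows. The CTCF core was in 6.69% of gained and 7.36% of lost windows, against 27.4% of retained windows. These letters miss many CTCF sites: they were in only 28.5% of the 62540 union windows with CTCF in all 4 lists. The E-box of MITF (CACGTG), the ISRE core bound by interferon-regulatory factors, the SOX letters (ACAAAG) and the CCAAT box were each within 1 percentage point of their share in all union windows, and the ETS letters CCGGAAGT were in 0.316% of gained windows. The median GC content was 48.0% at gained, 45.5% at lost and 47.0% at all union sites.

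The gained SMC1A peaks were weak. In STAG2-KD replicate 1 their fold enrichment over input ran from 2.29 to 14.1 with a median of 4.46, and in replicate 2 from 1.53 to 10.7 with a median of 3.80. Their median rank within the list, as a percentile by p-value with 100 as the strongest peak, was 17.9 in replicate 1 and 46.9 in replicate 2. Only 107 sites (2.60%) lay above the median of both STAG2-KD lists. The lost sites had like values in WT, with medians of 4.45 and 3.40, and the retained sites had medians of 11.6 and 10.6 in STAG2-KD.

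**Figure D3:**
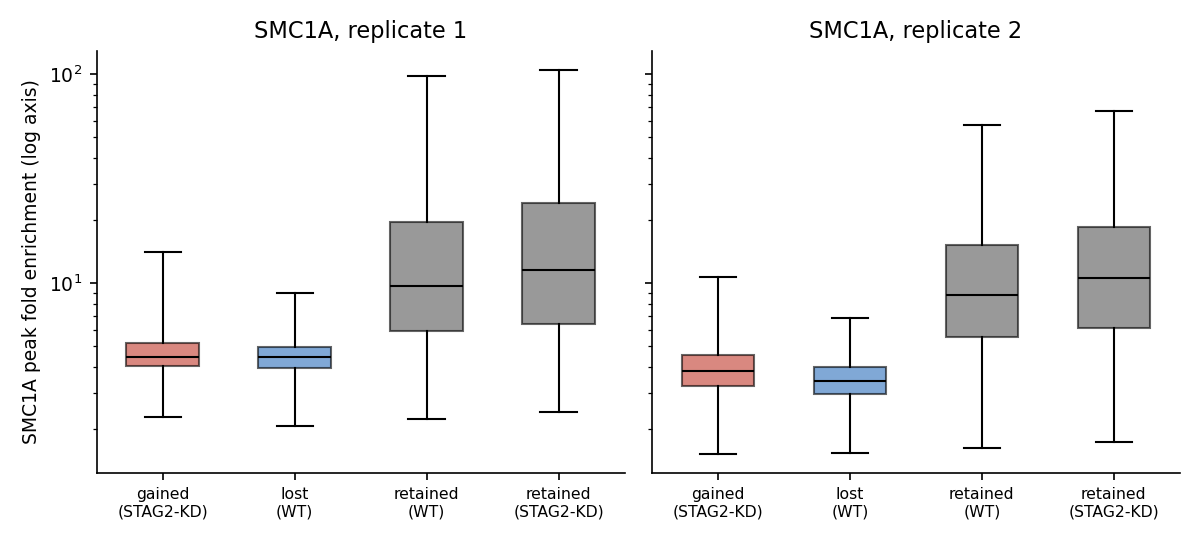
SMC1A fold enrichment over input (log axis) at gained sites in STAG2-KD, at lost sites in WT and at retained sites in both groups, for each replicate. Boxes give the quartiles and the median and whiskers the lowest and highest value, and the gained medians of 4.46 and 3.80 lie below the retained medians of 11.6 and 10.6.

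The sites were compact, with a median width of 390 bp against 332 bp for lost and 1115 bp for retained sites, and together they covered 1.75 Mb. The summits of the 2 STAG2-KD peaks lay a median of 53.0 bp apart, and 78.0% of the pairs lay within 100 bp. The weakest members had a −log10 q of 2.01 in replicate 1 and a −log10 p of 2.09 in replicate 2, just above the thresholds of 2 that the lists were called at. Just outside the rule stood 12373 sites with peaks in both STAG2-KD lists and in exactly 1 WT list. In 12240 of these the WT peak came from replicate 2, with a lowest −log10 p of 2.05, and in 133 from replicate 1, with a lowest −log10 q of 2.33. The lowest background behind the peak calls was inferred from each peak's fold and p-value. For SMC1A it was 1.10 times as high in STAG2-KD as in WT in replicate 1 and 0.987 times in replicate 2. Such a background need not follow the depth of a single library: in WT replicate 1 it was 1.72 for both STAG1 and STAG2. The part of depth in the count of gained sites was not tested.

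The next question was which cohesin variant stood at the gained sites. In replicate 1, STAG1 peaks were found at 7.20% of them in WT against 24.9% after knockdown. In replicate 2 the shares were 28.7% for WT and 35.3% for STAG2-KD. The share was higher in STAG2-KD within each replicate, but the STAG2-KD library of replicate 1 was below the WT library of replicate 2, so the groups overlapped. The means were 17.9% ± 15.2 in WT and 30.1% ± 7.40 in STAG2-KD (SD, n = 2), a difference of 12.2 percentage points, with p = 0.667 in the two-sided exact permutation test and 1.0 after Benjamini-Hochberg adjustment over the 3 antibodies. With 2 libraries against 2 this test cannot go below 0.333. The replicates were called at different thresholds, so the SDs also hold that difference. With the replicates as a block, the exact permutation p was 0.5, the smallest possible. With all lists held to a −log10 q of at least 2, the groups no longer overlapped, at 8.76% and 26.7% in WT and 28.5% and 33.9% in STAG2-KD (exact permutation p = 0.333, unadjusted). The gained sites were selected anew from these lists (5159 sites). Over all union sites the STAG1 share rose by 7.99 points in replicate 1 and 1.35 in replicate 2, less than the 17.7 and 6.69 points at the gained sites.

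In replicate 1, STAG2 peaks were found at 8.59% of the gained sites in WT against 6.69% after knockdown. In replicate 2 they were found at 30.6% and 42.0%, respectively. The replicates thus went in opposite directions at the deposited thresholds, with a mean difference of 4.76 points (exact permutation p = 1.0, adjusted p = 1.0). With every list cut to the same number of top peaks, the gained sites were selected anew (3252 sites) and the STAG2 share rose in both replicates. It was 24.8% in WT against 34.1% after knockdown in replicate 1 and 29.6% against 44.8% in replicate 2 (difference 12.3 points, exact permutation p = 0.333, unadjusted). The cut kept 58418 peaks, all of the STAG2-KD list of replicate 1, and shortened the WT list from 79048. It thus removed the fall in the number of STAG2 peaks, so it cannot show whether STAG2 itself rose at these sites. At the deposited thresholds the STAG2 share over all union sites fell by 8.64 points in replicate 1 and fell by 4.01 points in replicate 2. At the lost sites it fell by 24.9 points and fell by 30.5 points.

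In replicate 1, CTCF was found at 16.9% of the gained sites in WT against 25.3% after knockdown. Replicate 2 gave 30.1% and 34.5%. The share was higher in STAG2-KD in each replicate, by 8.44 and 4.40 points, with overlapping groups at the deposited thresholds (exact permutation p = 0.667, adjusted p = 1.0). Over all union sites the difference was 1.45 points in replicate 1 and −0.61 in replicate 2. At the lost sites the CTCF share moved the other way, by −3.65 and −4.77 points.

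**Figure D4:**
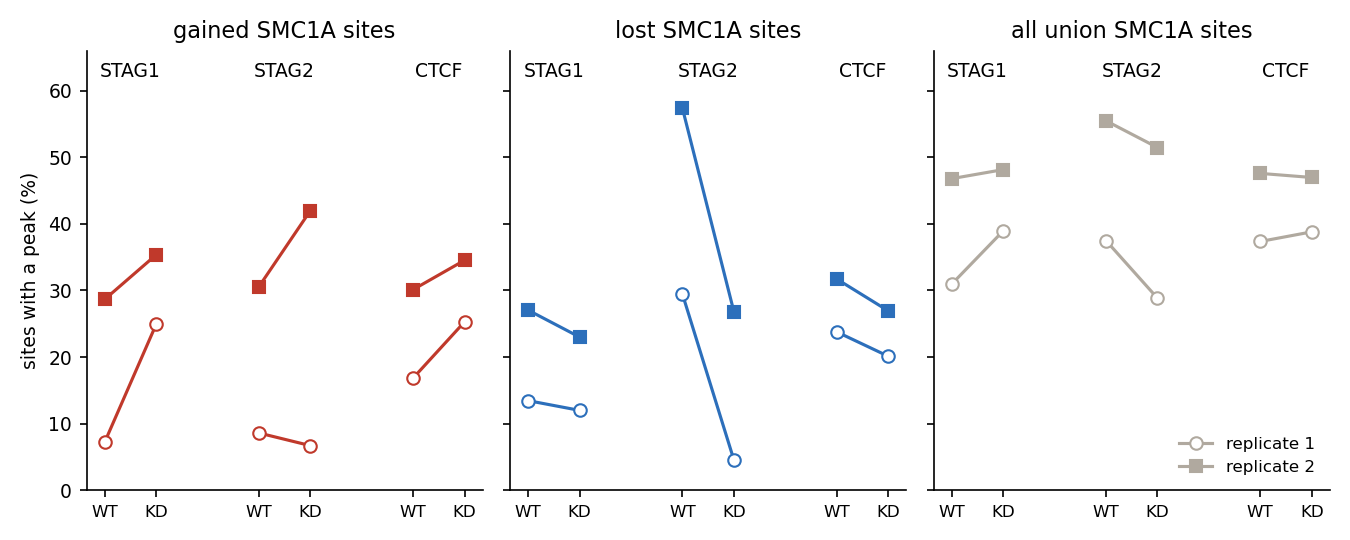
Percent of gained, lost and all union SMC1A sites with a STAG1, STAG2 or CTCF peak in each WT and STAG2-KD library, with a line joining the libraries of each replicate. At gained sites STAG1 and CTCF were higher in STAG2-KD in both replicates, while STAG2 was 8.59% against 6.69% in replicate 1 and 30.6% against 42.0% in replicate 2.

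Counted site by site, 221 gained sites (5.38%) had STAG1 peaks in both STAG2-KD lists and in neither WT list, against 1.59% of all union sites. CTCF was gained in this sense at 61 sites (1.48%, background 0.35%) and lost at 10 (0.243%, background 0.356%). STAG2 was gained at 35 sites (0.851%, background 0.158%) and lost at 43 (1.05%, background 1.37%). All of these proteins were thus more often gained along with SMC1A than over the union, and at most of the gained SMC1A sites no such joint change was called. Within each group all antibodies were called against a shared input, so these lists are not independent of the SMC1A lists that chose the sites. The part of the shared input in the joint changes was not tested. STAG1 was lost at 2 sites (0.0486%, background 0.323%). Among the 221 sites that gained STAG1, 65 had no STAG2 peak in any list and 2 had lost STAG2 in both replicates.

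Within single replicates, 744 gained sites (18.1%, background 9.32%) had a STAG1 peak only in STAG2-KD in replicate 1 and 552 (13.4%, background 6.01%) in replicate 2. A STAG1 peak only in WT was found at 17 sites (0.414%, background 1.34%) and 277 sites (6.74%, background 4.66%). STAG2 differed most between the replicates: 116 sites (2.82%, background 1.32%) and 770 sites (18.7%, background 4.55%) had it only in STAG2-KD, while 194 (4.72%, background 9.96%) and 301 (7.32%, background 8.56%) had it only in WT. CTCF was present only in STAG2-KD at 396 sites (9.63%, background 3.57%) and 254 sites (6.18%, background 2.68%), and only in WT at 49 (1.19%, background 2.12%) and 73 (1.78%, background 3.3%). In each of these counts on the STAG2-KD side the gained sites lay above the background of the union. On the WT side STAG1 in replicate 2 also lay above it (6.74% against 4.66%), and the other counts lay below.

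Where an antibody had peaks in all 4 of its lists, their strength could be followed. At 278 such gained sites the median STAG1 percentile was 25.9 in WT against 50.6 after knockdown in replicate 1 and 53.0 against 57.8 in replicate 2, and 91.7% and 67.6% of the sites were higher in STAG2-KD. Over all 52577 union sites with 4 STAG1 peaks the shares were 84.4% and 61.2%. CTCF was in all 4 lists at 637 gained sites (15.5%, against 34.5% of the union), of which 71.9% and 59.7% had a higher CTCF percentile in STAG2-KD, against 56.1% and 38.6% of all such union sites and 18.7% and 8.42% of such lost sites. CTCF was thus more often higher in STAG2-KD where SMC1A was gained and more often lower where SMC1A was lost. The part of the input that the antibodies of a group shared was not tested here either. The 156 gained sites with 4 STAG2 peaks had a median STAG2 percentile of 34.8 in WT against 26.4 after knockdown in replicate 1 and of 52.8 against 55.6 in replicate 2.

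Over all 12 lists of the other proteins, 1242 gained sites (30.2%) had no STAG1, STAG2 or CTCF peak at all, close to the 29.3% of all union sites and far above the 0.418% of retained sites. Another 781 (19.0%) had all 3 proteins in at least 1 list each, against 40.3% of the union, and 87 (2.12%) had a peak in all 12 lists, against 22.7%. STAG1 or STAG2 without CTCF was found at 1369 sites, made up of 598 with STAG2 alone, 264 with STAG1 alone and 507 with both. STAG2 alone made up 14.5% of gained sites, 21.6% of lost sites and 8.63% of the union. STAG1 alone made up 6.42%, 2.09% and 2.31%, and both without CTCF 12.3%, 12.03% and 8.82%. CTCF was missing from every list at 63.5% of gained sites (95% Wilson interval 62.03 to 64.97, for counting error only) against 49.01% of the union. Under the alternatives given at the end this share ran from 36.4% to 73.5%. No union share was computed for them, so the excess over the union is known only for the deposited lists. The other proteins were less common at weaker sites: STAG1 was found in any list at 64.2% of the 1027 strongest and 26.0% of the 1028 weakest, and sites with no other protein made up 13.8% and 46.6%.

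**Figure D5:**
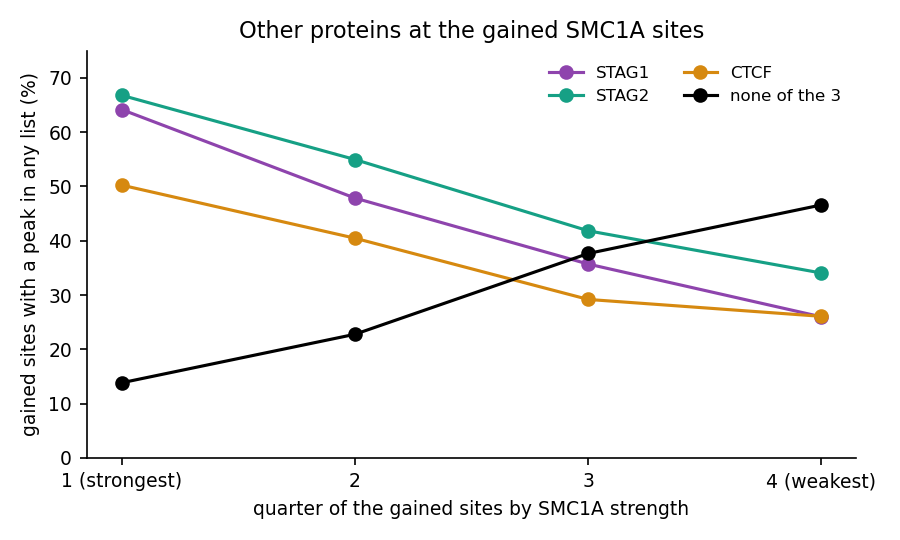
Percent of gained sites with a STAG1, STAG2 or CTCF peak in any list, and with none of the 3, in 4 groups of near equal number from the strongest to the weakest SMC1A signal. STAG1 fell from 64.2% to 26.0% and sites with no other protein rose from 13.8% to 46.6%.

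The strongest gained site by summed SMC1A rank lay in the intron of a transcript 137 kb downstream of a start of MACROH2A1, which encodes a variant histone (chr5:134544087-134544975). Its SMC1A fold was 14.1 in STAG2-KD replicate 1 and 8.58 in replicate 2. All 12 other lists had a peak there: the CTCF fold was 10.5 in WT against 25.2 after knockdown in replicate 1 and 10.1 against 23.4 in replicate 2, and the STAG1 fold was 4.27 and 15.1, then 11.1 and 10.4. CTCF was thus higher in STAG2-KD in both replicates and STAG1 in 1 of 2.

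The second site lay in an intron of SH3RF3 (chr2:109876820-109877899), with SMC1A folds of 10.8 and 10.7 and peaks in all 12 other lists. There the CTCF fold rose from 17.4 to 21.8 and from 15.7 to 23.3, over the CTCF core printed above. The next, 8.47 kb upstream of SLC2A1, which encodes the glucose transporter GLUT1, had SMC1A folds of 9.09 and 8.63 and no CTCF peak in any list (chr1:43432638-43433435). STAG1 was present there only in STAG2-KD, at folds of 5.05 and 3.27, and STAG2 only in replicate 2, at 2.03 in WT and 4.49 in STAG2-KD. The other 3 of the strongest 6 lay between genes on chromosome 1 and in introns of LEXM and SLC14A2, a urea transporter gene, and each had STAG1 and CTCF peaks in both STAG2-KD lists.

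Of the sites that gained STAG1, the one with the strongest STAG1 signal was a narrow interval of 1.07 kb from a start inside TAFA5, which encodes a secreted brain protein (chr22:48973214-48973449). STAG1 had no peak there in WT and folds of 50.2 and 26.2 in STAG2-KD, while SMC1A reached only 6.12 and 4.13. CTCF was also absent in WT and had folds of 7.14 and 30.3 in STAG2-KD, and STAG2 was called only in WT replicate 2, at 20.9. The next site, 68.4 kb upstream of MAX, the dimer partner of MYC, had STAG1 folds of 8.61 and 6.28 in STAG2-KD and none in WT (chr14:65637435-65638102). Its CTCF fold was 5.07 in WT against 16.8 after knockdown in replicate 1 and 2.99 against 13.4 in replicate 2. The site 39.6 kb upstream of AHI1, a gene of the primary cilium, had STAG1 folds of 7.89 and 4.77 and neither STAG2 nor CTCF in any list. It carries the AP-1 letters. The fourth, between genes on chromosome 16 (chr16:34261740-34262131), had STAG1 folds of 5.80 and 4.03 and no CTCF.

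The sites with the strongest CTCF were chosen among those with CTCF peaks in all 4 lists. At the TDRD3 promoter (chr13:60971548-60971846) the CTCF fold was 79.9 in WT against 90.8 after knockdown in replicate 1 and 55.9 against 37.8 in replicate 2, with SMC1A at 4.24 and 4.33. At the MPST promoter (chr22:37418065-37418422), a gene of sulfur metabolism, it was 67.0 and 77.0, then 43.5 and 49.1. The remaining pair of this kind, near PNMA8B and LINGO1, had WT CTCF folds from 28.3 to 51.8. The CTCF signal at these 4 sites was several times their SMC1A signal of 4.13 to 6.29.

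Of the 4 strongest sites with no other protein, 2 lay at promoters. SMC1A folds were 7.23 and 5.93 at the start of FBXO39, 20.8 kb from the start of the neighbouring interferon-induced gene XAF1. They were 8.12 and 4.78 within 1 kb of a transcript start of UCK2, a pyrimidine salvage kinase. That start need not be the first of the gene. The other 2 lay 15.4 kb upstream of FHL1 and 24.5 kb downstream of a start of MFSD1.

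By place, 690 gained sites (16.8%) had their midpoint within 1 kb of a transcript start (95% Wilson interval 15.7 to 18.0), 199 (4.84%) in an exon, 1928 (46.9%) in an intron and 1294 (31.5%) between genes. The union had 20.2% at promoters and 27.5% between genes, and the lost sites 17.7% and 23.7%. The gained sites were thus less often at promoters than the union and more often between genes than either. They lay a median of 17.5 kb from a protein-coding transcript start, 8.03 kb from a retained SMC1A site and 1.502 kb from a CTCF summit, and only 5.30% lay within 5 kb of another gained site. By chromosome they made up from 1.75% of the union sites on chromosome 6 to 2.85% on chromosome 20.

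A gained site lay within 10 kb of 2776 of 20090 protein-coding genes (13.8%), and inside 1843 of them. Long genes had more: the share within 10 kb ran from 7.19% of the shortest genes to 25.7% of the longest when genes were split into 5 equal groups by length. Most gained sites inside a gene were single, with 1533 genes holding 1 site, 243 holding 2 and 67 holding 3 or more. The genes with the most sites were CAMTA1, a transcription activator, with 8, NALF1 with 7 and RORA, a nuclear receptor, with 6. In NALF1 the 7 gained sites were 41.2% of its 17 union sites and none was lost, while in CAMTA1 they were 8.42% of 95. The next genes, with 5 each, were ZMIZ1, ACOXL, RDX, MAML3, CDH13, PDE4D and MACROD2. The 10 genes ran from 248 kb (ZMIZ1) to 2058 kb (MACROD2) in length, and together they held 2 lost sites, in RDX and PDE4D.

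Of the gene lists, the feedback regulators and transcriptional targets of ERK signalling had a gained site within 10 kb at 9 of 16 genes (56.2%), against 13.8% of all protein-coding genes. These were the feedback inhibitors SPRY2, SPRY4 and SPRED2, the ERK phosphatase gene DUSP5, the ETS factors ETV4 and ETV5, the immediate-early factor EGR1, the cell cycle gene CCND1 and MYC. A lost site lay within 10 kb of 2 of the 16 genes (12.5%), SPRY4 among them, against 7.47% of all protein-coding genes. Counted over sites, 9 of the 201 union sites near the 16 genes were gained (4.48%) and 2 were lost (0.995%). Near all protein-coding genes the shares were 2.13% and 1.15%. The site upstream of EGR1 was the strongest of them, with SMC1A folds of 6.25 and 7.96 and CTCF present in all 4 lists at folds of 5.34 to 7.14. At DUSP5 the site lay inside the gene, 4.41 kb from the gene start, with folds of 4.56 and 2.82. The CCND1 site also lay inside its gene, 6.46 kb from the gene start, with 4.19 and 3.13. Both were close to a transcript start within the gene, at 0.432 and 0.34 kb. AP-1 letters were in 1 of the 9 sites (11.1%), the one upstream of EGR1, against 24.3% of the gained sites near all protein-coding genes. Neither DUSP6 nor FOS had a gained site, but only 2 and 4 union sites lay near them. With peaks held to a −log10 q of at least 5 in every list the count was 7 of 16 (43.8%, all genes 17.3%), and with no WT peak allowed within 1 kb it was 4 of 16 (all genes 8.71%).

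Interferon-stimulated genes had a gained site within 10 kb at 15 of 48 (31.2%) and a lost site at 2 of 48 (4.17%), against 13.8% and 7.47% of all protein-coding genes. They included IRF7, a transcription factor of the pathway, the antiviral effectors ISG15, IFITM3, OAS3, RSAD2, BST2 and IFIT3, and LGALS3BP with 3 sites. Not all of these sites were nearest to the interferon gene. The IFIT3 sites lay nearest a start of LIPA, 15.3 and 17.4 kb from the IFIT3 gene start. The BST2 site lay at the CCDC194 promoter, 11.6 kb from the BST2 gene start. OAS1 and OAS3 shared a site, as did IFITM1 and IFITM3, so that 19 of 333 union sites were gained (5.71%) and 2 were lost. Over the 19 sites the SMC1A fold was 3.16 to 7.23 in the first replicate and 2.19 to 5.93 in the other. The 2 sites by ISG15 had folds of 3.37 and 2.58, and 3.47 and 3.30. The strongest were the FBXO39 promoter near XAF1, at 7.23 and 5.93, and a site by LGALS3BP, at 6.12 and 4.77. Of the 19, 1 (5.26%) carried AP-1 letters, the site at the IFITM3 promoter, against 24.3% of the gained sites near all protein-coding genes. This count did not hold under a stricter threshold: with a −log10 q of at least 5 it was 8 of 48 (16.7%, all genes 17.3%), and with every list cut to the same number of top peaks 4 of 48 (8.33%, all genes 11.5%). Neither IRF9 nor CD274, which encodes PD-L1, had a gained site within 10 kb. Only 2 union sites lay near IRF9 and 4 near CD274, so little can be read from this absence.

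The melanocyte lineage list had 3 of 20 genes with a gained site, SOX10, OCA2 and RAB27A, and 3 of 327 union sites gained (0.917%) against 9 lost (2.75%). SOX10, a master factor of the lineage, had a site 7.76 kb upstream with SMC1A folds of 4.46 and 4.37 and no other protein. The genes of the dedifferentiated melanoma state had 4 of 17, among them EGFR, FOSL1 and TNC, with 6 of 231 union sites gained (2.60%). EGFR, a receptor that signals to ERK, had 2 gained sites in the same intron, with folds of 4.54 and 7.46 at the first, which carried AP-1 letters, and 4.05 and 5.22 at the second. FOSL1, an AP-1 subunit, had a site 1.69 kb upstream with folds of 3.84 and 3.40. By number of sites, the melanocyte list lay below the 2.13% gained near all protein-coding genes and the dedifferentiated list near it. By number of genes, the shares were 15.0% and 23.5%, against 13.8% of all protein-coding genes, so the reading depended on the measure. The melanocyte share of lost sites lay above the 1.15% near all protein-coding genes, and 3 of the 231 dedifferentiated sites were lost. These counts are small, and the differences were not tested.

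Cohesin genes and their regulators had a gained site at 2 of 21 (9.52%, all genes 13.8%), and 2 of their 169 union sites were gained (1.18%, all genes 2.13%). The site inside the STAG2 gene (chrX:123197903-123198470) lay in an intron 21.8 kb from a transcript start, with SMC1A folds of 5.22 and 5.34 and 2 AP-1 matches in the window printed above. Its only other peak was STAG2 in STAG2-KD replicate 2, at a fold of 2.72. The other, 9.41 kb upstream of STAG3, lay at the promoter of GAL3ST4. No gained site lay near STAG1, SMC1A, SMC3, RAD21 or CTCF, which had from 3 (SMC1A) to 12 (STAG1) union sites each.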

How the data were processed

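ChIP-seq peak lists were analysed as deposited. Per the labels, reads were mapped to hg19 and peaks called with MACS2, and the notes name Bowtie2 for replicate 1 and CASAVA 1.4, BWA, SAMtools, Picard, MACS2 and deepTools for replicate 2; the study's methods name Bowtie2 throughout. The authors called peaks per library against an input library, which each group shared across antibodies, and the inputs have no list. The deposited columns used were fold enrichment over input (a ratio), −log10 p-value, −log10 q-value and the summit offset. No read counts are given, so only a ratio of backgrounds between the groups was inferred, from fold and p-value. Replicate 1 lists hold peaks with −log10 q of at least 2 and replicate 2 lists peaks with −log10 p of at least 2, and library preparation also differed (bead against gel size selection), so replicate and processing cannot be told apart and comparisons were read within replicates.

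Intervals of the 4 SMC1A lists were merged at 1 bp overlap, and a site was scored for each list by any overlap. Genes came from GENCODE mapped to GRCh37, and promoters were midpoints within 1 kb of a transcript start. Shares were compared by an exact permutation test over libraries. Members, gene lists, motifs and tests were chosen with earlier results of these data known. Named sites were the 6 with the lowest summed SMC1A ranks, the 4 with STAG1 gained and the lowest STAG1 ranks, the 4 with CTCF in all lists and the lowest CTCF ranks, and the 4 with no other peak and the lowest SMC1A ranks; named genes were the 10 with the most gained sites and list genes within 10 kb of one. Some list genes are not reported here by name. The middle base of AP-1, the bins and the sites outside the rule were examined after the values were seen, as were the genes named as having no gained site. Alternatives changed the threshold, list length, overlap, absence rule, chromosomes, replicates and promoter window. Python 3.11.15 with numpy 2.4.6, pandas 2.3.3, SciPy 1.17.1 and pysam 0.24.0 was used; scripts were tested on simulated lists.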

Additional observations from a re-analysis of the deposited data

Results flagged for a closer look

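At the gained SMC1A sites the share with a STAG1 peak was higher in STAG2-KD in both replicates, by a mean of 12.2 percentage points (17.7 and 6.69), while at the lost sites it was lower in both, by −1.46 and −4.04 points. The share with a CTCF peak went the same way, with a mean of 6.42 points at gained sites (8.44 and 4.40) and −3.65 and −4.77 points at lost sites. The difference between gained and lost sites was not tested for either protein.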

How the results depend on the processing

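The alternatives for the AP-1 share and for the 2 gene lists were chosen after seeing the data. Each alternative that changed the peak lists, overlap, absence rule, chromosomes or replicates also selected the gained sites anew. The count of gained sites stayed within 1.5 times of 4111 under 6 of 9 alternatives (2875 to 5159), was 107 with only the strongest 50% of each STAG2-KD list, and ran from 17438 to 44445 when a replicate was left out. The STAG1 and CTCF differences kept their direction under all 10 alternatives each, from 3.12 to 25.2 and from 2.65 to 14.02 points. The replicate block among these has the main difference by construction, so its direction could not change. Keeping chromosome Y gave 4119 sites and so hardly changed the set. The STAG1 p fell from 0.667 to 0.333 with the common threshold, the stricter threshold, equal numbers of peaks and the strongest 50%, and the CTCF p did so with the last 2 (exact permutation, unadjusted), as the groups then did not overlap. The STAG2 difference was 12.3 points with equal numbers (p = 0.333 in the exact permutation test) and 15.0 with the strongest 50%, and ran from −10.5 to 3.64 points when a replicate was left out, the former with replicate 1 alone. Equal numbers remove the fall in the number of STAG2 peaks after knockdown. With the replicates as a block, the paired differences were 12.2 for STAG1 (exact permutation p = 0.5), 4.76 for STAG2 (p = 1.0) and 6.42 for CTCF (p = 0.5), where 0.5 is the smallest p possible.

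With the stricter threshold, equal numbers of peaks, the strongest 50% and no WT peak within 1 kb, the promoter share was 20.1%, 19.2%, 11.2% and 11.5% (union 23.9%, 25.02%, 21.6% and 20.2%), the share without CTCF 48.5%, 48.2%, 36.4% and 60.1%, the AP-1 share 24.1%, 22.4%, 32.7% and 29.7% (union 10.9%, 9.59%, 9.65% and 11.03%), and the interferon-stimulated genes 8, 4, 1 and 8 of 48, or 16.7%, 8.33%, 2.08% and 16.7% (all genes 17.3%, 11.5%, 0.314% and 8.71%). The ERK list had 0 genes with the strongest 50% and 4 with no WT peak within 1 kb. A common threshold gave 61.4% without CTCF, and an overlap of 50% of the shorter peak gave 66.4% without CTCF and 18.4% at promoters. The union share without CTCF was not computed for any alternative. The promoter share was 41.7% within 5 kb (union 44.4%) and 18.9% by any overlap (union 22.7%). Windows of 100 and 400 bp gave AP-1 shares of 15.4% and 38.4% (union 5.85% and 18.8%). Leaving out a replicate gave promoter shares of 16.1% to 19.6%, shares without CTCF of 45.9% to 73.5%, AP-1 shares of 16.3% to 19.5%, 22 to 40 interferon-stimulated genes and 12 to 13 ERK genes. With replicate 1 alone these were 45.8% and 75% (all genes 42.9%), and with replicate 2 alone 83.3% and 81.2% (all genes 63.2%). The cause of these changes was not tested. Read counts are not in the lists, so absence of a peak means only that none passed the threshold at an unknown depth.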
